A study of Arabidopsis thaliana with 6 samples.

Results

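The 10 auxin synthesis and influx genes were taken by their gene identifiers from the 33341 genes counted in each library. They are 4 YUC genes (YUC1, YUC2, YUC4 and YUC6), the aminotransferase genes TAA1 and TAR2, and the influx carrier genes AUX1, LAX1, LAX2 and LAX3. Each of the 10 passed the filter on low counts, which kept 20013 genes. FANS RNA-seq measured the RNA of GFP-positive nuclei sorted from inflorescences at about stage 5 of flower development, after 4 days of induction with 2 µM dexamethasone (DEX). The nuclei were marked in the AP3 domain (pAP3:NTF, the AP3 promoter) in 3 libraries, X13, X16 and X74. In the other 3 libraries, X14, X71 and X26, they were marked in the AG domain (iAG:NTF, the second intron of AG before a minimal 35S promoter). NTF is a fusion protein that brings GFP to the nuclear envelope. A sorted nucleus is therefore one in which the promoter or intron was active, whether or not it held the protein of that name. The authors describe stamens as specified by AP3 and AG together. Nuclei of the stamen region can therefore be in the libraries of either domain, and the domains are not separate sets of cells. All libraries came from pAP1::AP1-GR ap1 cal plants of the Ler background, whose cauliflower-like inflorescences form flowers together once DEX releases AP1-GR into the nucleus, and each library pooled several inflorescences. The labels do not say whether the libraries of a domain were separate inductions, so that the p-values measure the spread between these libraries only.

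Indole-3-acetic acid, the main auxin of plants, is made from tryptophan in a short pathway. Aminotransferases of the TAA1 family convert tryptophan to indole-3-pyruvate, and flavin monooxygenases of the YUC family convert indole-3-pyruvate to auxin, a step regarded as rate limiting. AUX1 and the LAX proteins are carriers of the plasma membrane that move auxin into the cell. In Arabidopsis flowers, local auxin production and transport position the floral organs and shape stamens, the gynoecium and the veins.

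Total counts per library lay between 28808948 and 42089156, and X74 and X71 had reads on more genes (26717 and 26489) than the other 4 libraries (22923 to 23439). Every pair of replicate libraries differed beyond counting error, and its chi-square per degree of freedom was at least 41.1. The AP3 transcript was at 126, 207 and 239 CPM (read counts divided by TMM-scaled library size) in X13, X16 and X74, against 58.1, 41.4 and 12.2 CPM in X14, X71 and X26. The AG transcript, at 41.5, 75.4 and 94.3 CPM in the AP3 libraries and 38.4, 41.2 and 14.2 CPM in the AG libraries, was lower in each AG library than in each AP3 library and so ran against the labels, although it did not pass the test (edgeR adjusted p = 0.141). The domains are therefore named here by the labels. In sorted nuclei, fewer nuclei of a type and less RNA per nucleus cannot be told apart.

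Between the domains, the 4 YUC genes divided into pairs. YUC1 and YUC4 were higher in the AP3 libraries, 6.49-fold and 4.27-fold by their mean CPM, whereas YUC2 and YUC6 were lower there. TAA1 and TAR2, which act in the step before the YUC enzymes, did not pass the test in either direction. Of the carriers, AUX1 was lower in the AP3 libraries, LAX3 narrowly missed the threshold, and LAX1 and LAX2 overlapped between the domains. In edgeR's quasi-likelihood test, 5 of the 10 genes had an adjusted p under 0.05 (Benjamini-Hochberg over all 20013 genes), 2 higher and 3 lower in AP3. Over all genes tested, 7.76% were called, 1.36% higher and 6.40% lower in AP3. In 6 of the 10 genes, the 3 AP3 libraries lay entirely on one side of the 3 AG libraries, where 25.9% of all genes tested did so.

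**Figure D1:**
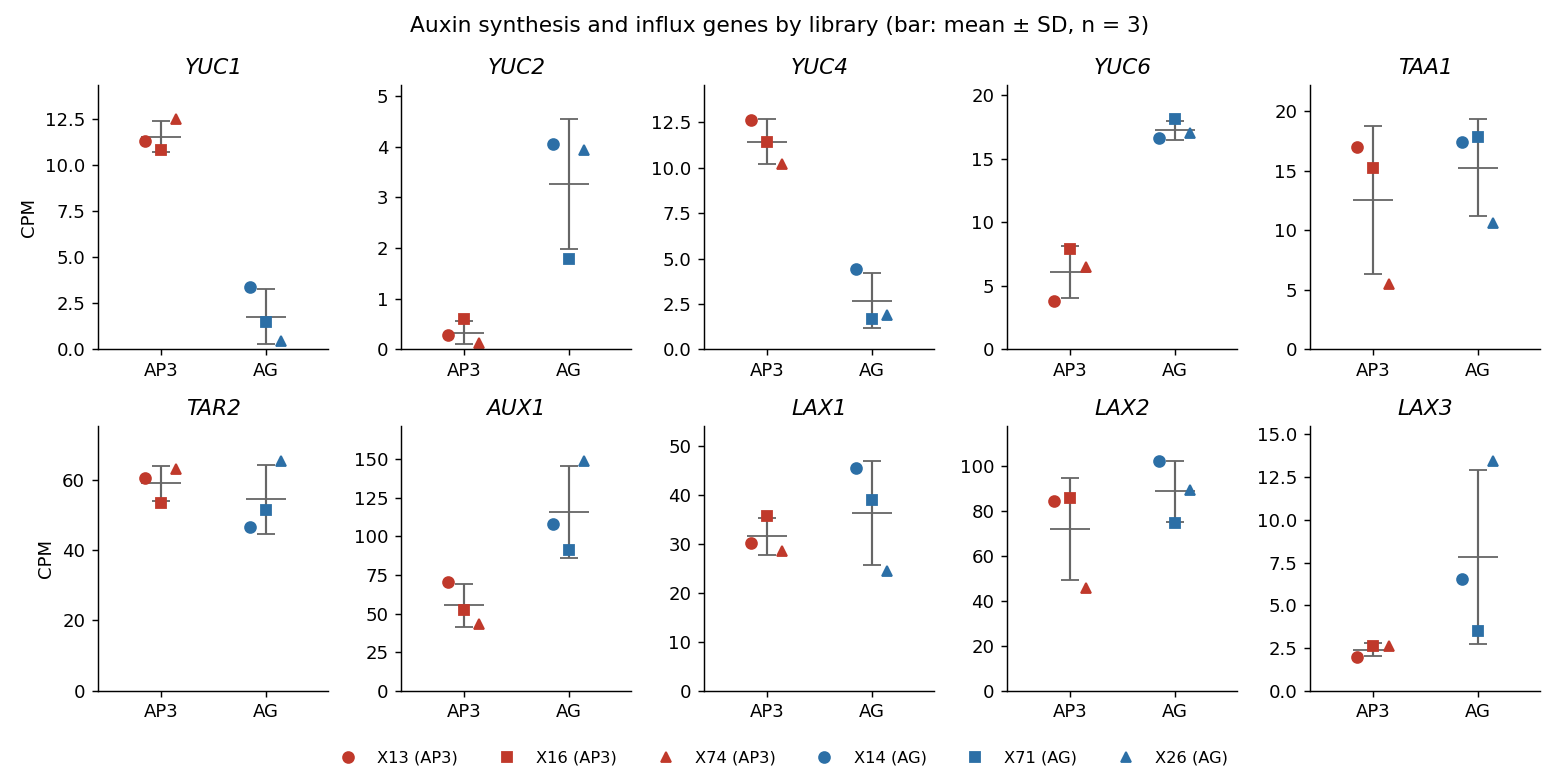
Level of each gene in CPM (vertical axis, from 0, a scale of its own in each panel) in the 3 AP3 libraries (red, left) and the 3 AG libraries (blue, right), with a symbol for each library and a bar for the mean ± SD. YUC1 and YUC4 lie higher in all AP3 libraries, YUC2, YUC6, AUX1 and LAX3 lie lower in all of them, and TAA1, TAR2, LAX1 and LAX2 overlap.

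YUC1 (AT4G32540, chromosome 4, 15700829 to 15703000 on the forward strand, 4 exons) is 1 of the YUC genes known for floral organ and vein formation in Arabidopsis. It was at 11.3, 10.8 and 12.5 CPM in X13, X16 and X74, against 3.39, 1.51 and 0.440 CPM in X14, X71 and X26. The AP3 libraries hardly differed among themselves, with 11.6 ± 0.843 CPM (SD, n = 3), whereas the AG libraries were spread widely around 1.78 ± 1.49 CPM (SD, n = 3). The lowest AG library, X26, held 14 read pairs of YUC1, with an exact Poisson 95% interval of 7.65 to 23.5 that covers counting error only. X26 was also the AG library with the least AP3 and AG transcript. The log2 fold change (AP3/AG) of YUC1 was 2.71 (standard error, SE, 0.59, edgeR adjusted p = 0.0250). The call was lost without X13 (edgeR adjusted p = 0.0561), X16 (0.0702) or X71 (0.0899), and in the 4 libraries of the authors' normalized table, X13, X16, X14 and X26 (0.124), with the fold change at 2.54 to 2.75 in these fits. Without X14 it was 3.55. Of the 10 genes, edgeR called 2 in these 4 libraries, YUC2 and LAX3, where it called 5.24% of all genes.

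YUC4 (AT5G11320, chromosome 5, 3611247 to 3613640 on the reverse strand, 4 exons) acts redundantly with YUC1 in Arabidopsis flowers. It was at 12.7, 11.4 and 10.2 CPM in X13, X16 and X74, against 4.43, 1.69 and 1.92 CPM in X14, X71 and X26. As for YUC1, X14 was the highest of the AG libraries and still below every AP3 library. The log2 fold change was 2.10 (SE 0.40, edgeR adjusted p = 0.0142). The call was lost on leaving out X16 (edgeR adjusted p = 0.0535) and in the same 4 libraries as for YUC1 (0.0582).

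YUC2 (AT4G13260, chromosome 4, 7721487 to 7724070 on the reverse strand, 3 exons) and YUC6 are known together for stamen and pollen development in Arabidopsis. YUC2 was at 0.274, 0.592 and 0.134 CPM in X13, X16 and X74, against 4.06, 1.78 and 3.93 CPM in X14, X71 and X26. It was the gene of the 10 with the fewest reads, only 10, 18 and 5 read pairs in the AP3 libraries and 110, 60 and 125 in the AG libraries. Of the AP3 libraries only X16 held more than 10, so that YUC2 passed the filter on low counts only through the AG libraries. The filter therefore favoured its call as lower in AP3. The 5 read pairs of X74 have an exact Poisson 95% interval of 1.62 to 11.7 for counting error only. The log2 fold change was -3.29 (SE 0.65, edgeR adjusted p = 0.0159). It missed the threshold without X13 (edgeR adjusted p = 0.0595), and the fold change was -3.98 without X16.

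YUC6 (AT5G25620, chromosome 5, 8934941 to 8938768 on the reverse strand, 4 exons) was at 3.84, 7.92 and 6.45 CPM in X13, X16 and X74, against 16.6, 18.1 and 17.0 CPM in X14, X71 and X26. Here the AG libraries were the close ones, with 17.2 ± 0.750 CPM (SD, n = 3), and the AP3 libraries were spread, with 6.07 ± 2.07 CPM (SD, n = 3). Its log2 fold change was -1.51 (SE 0.29, edgeR adjusted p = 0.0142). It was not called in the 4 libraries (edgeR adjusted p = 0.0762) or without X71 (0.05005).

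The 4 YUC genes had no exact stretch of 50 bases elsewhere in the nuclear genome, and no other counted gene overlapped them on either strand. The same held for the other 6 genes. Counting without strand therefore mixed no annotated neighbour into these values. Introns made up between 16.5% (YUC2) and 47.7% (AUX1) of the 10 genes by their longest transcript, and their reads were counted as well.

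The 250 bases before the annotated start of each YUC gene are shown because the genes divide into pairs that move together and in opposite directions. They were read 5′ to 3′ on the strand of the gene from the RefSeq TAIR10.1 genome. The windows are chr4:15700579-15700828 for YUC1, chr5:3613641-3613890 for YUC4, chr4:7724071-7724320 for YUC2 and chr5:8938769-8939018 for YUC6, and no other gene lies in them. Capitals mark matches to 4 motifs searched on both strands: the auxin response element (TGTCTC), the element bound by SHI/STY proteins (ACTCTAC), the G-box (CACGTG) and the CArG box of MADS proteins.
YUC1: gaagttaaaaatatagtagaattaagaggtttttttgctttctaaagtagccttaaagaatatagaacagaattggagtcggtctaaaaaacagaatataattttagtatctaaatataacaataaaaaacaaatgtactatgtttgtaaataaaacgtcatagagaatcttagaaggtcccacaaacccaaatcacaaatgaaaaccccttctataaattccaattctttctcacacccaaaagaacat
YUC4: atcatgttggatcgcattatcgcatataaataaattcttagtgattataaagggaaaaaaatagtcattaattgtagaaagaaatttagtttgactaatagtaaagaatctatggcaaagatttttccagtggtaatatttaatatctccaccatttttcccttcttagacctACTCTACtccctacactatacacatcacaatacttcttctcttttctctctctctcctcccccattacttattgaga
YUC2: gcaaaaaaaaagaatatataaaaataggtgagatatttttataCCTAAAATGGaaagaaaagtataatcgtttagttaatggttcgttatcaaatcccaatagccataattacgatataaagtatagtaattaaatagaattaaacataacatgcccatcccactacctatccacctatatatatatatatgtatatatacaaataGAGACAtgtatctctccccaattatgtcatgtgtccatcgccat
YUC6: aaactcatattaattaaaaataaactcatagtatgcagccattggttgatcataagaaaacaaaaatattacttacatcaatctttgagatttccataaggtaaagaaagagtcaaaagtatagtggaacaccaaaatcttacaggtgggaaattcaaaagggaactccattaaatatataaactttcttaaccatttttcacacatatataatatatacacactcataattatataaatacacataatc
YUC4 held an ACTCTAC whose first base lies 77 bases before the start. YUC2 held a TGTCTC on the opposite strand, 44 bases before the start, and a CArG box that begins 207 bases before it. No motif overlapped another, and YUC1 and YUC6 held none of the 4. Of the 33054 windows of this length before nuclear genes, 11.0% held TGTCTC, 1.78% ACTCTAC, 5.86% CACGTG and 2.39% a CArG box. In the windows of the other 6 genes none of these letters was found. A match describes the sequence and is no evidence of binding.

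Shares within a library do not depend on how libraries are scaled to each other. To compare genes, counts were divided by gene length, giving CPM per kilobase (RPKM). Of the summed RPKM of the 4 YUC genes, YUC1 and YUC4 together made up 90.4%, 81.0% and 85.2% in X13, X16 and X74, against 36.6%, 20.6% and 14.4% in X14, X71 and X26. This pair follows the directions seen in the same libraries, so that its joint share restates them and was not tested. YUC6 alone took 59.9% ± 11.8 (SD, n = 3) of the YUC level in the AG libraries, where it was the highest YUC gene in every library. The share of YUC4, the share chosen for a test, was 40.4% ± 4.69 in the AP3 libraries and 13.9% ± 5.16 in the AG libraries (SD, n = 3 each). The difference of 26.5 percentage points had p = 0.1 in a 2-sided exact permutation test over the 6 libraries, the smallest that 3 against 3 can give (adjusted over the 3 shares tested, 0.15). The summed YUC level was 11.8 ± 0.236 RPKM in the AP3 libraries and 7.70 ± 1.41 RPKM in the AG libraries (SD, n = 3 each), so that it differed less than its makeup.

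**Figure D2:**
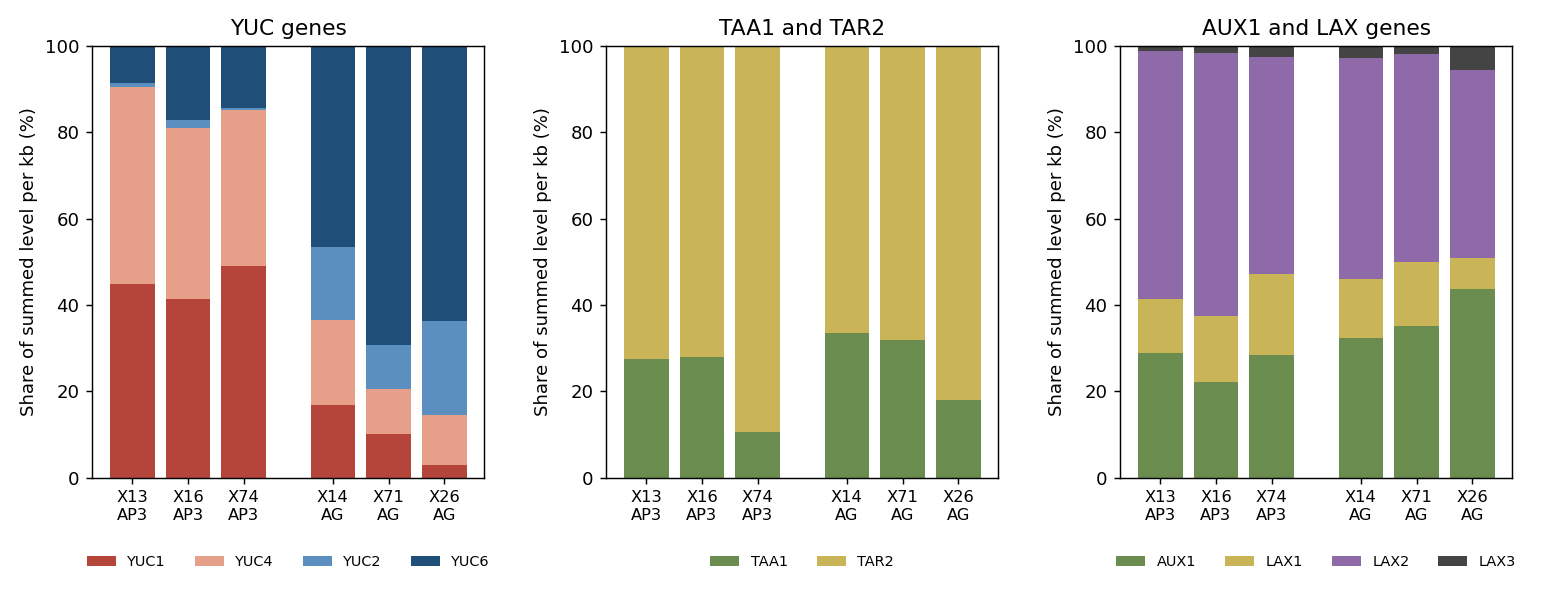
Share of each gene in the summed level per kilobase of its family (vertical axis, percent) in the 3 AP3 libraries (left bars) and the 3 AG libraries (right bars), for the YUC genes, for TAA1 and TAR2, and for AUX1 and the LAX genes. YUC1 and YUC4, paired by their direction in these libraries, fill at least 81.0% of the YUC level in the AP3 libraries and at most 36.6% in the AG libraries.

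The aminotransferase genes gave another picture. TAR2 (AT4G24670, chromosome 4, 12727531 to 12731331 on the reverse strand, 6 exons), a close relative of TAA1, was at 60.7, 53.5 and 63.0 CPM in X13, X16 and X74, against 46.7, 51.5 and 65.5 CPM in X14, X71 and X26. The domains overlapped. Its log2 fold change was 0.11 with a 95% interval of -0.29 to 0.52 (edgeR adjusted p = 0.812), so that a difference of 2-fold lay outside the interval. TAA1 (AT1G70560, chromosome 1, 26604855 to 26607652 on the forward strand, 5 exons) was at 17.0, 15.2 and 5.48 CPM in X13, X16 and X74, against 17.4, 17.8 and 10.6 CPM in X14, X71 and X26. It was lowest in X74 among the AP3 libraries and in X26 among the AG libraries, and the domains overlapped. Its log2 fold change was -0.28 with a wider 95% interval of -1.19 to 0.63 (edgeR adjusted p = 0.791), and changed sign without X74 (0.077). TAA1 made up 22.0% ± 9.89 of the summed RPKM of TAA1 and TAR2 in the AP3 libraries and 27.8% ± 8.59 in the AG libraries (SD, n = 3 each). That difference had p = 0.5 in the exact permutation test (adjusted over the 3 shares, 0.5). TAR2 was thus the more abundant of the pair in all 6 libraries.

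AUX1 (AT2G38120, chromosome 2, 15972876 to 15977180 on the forward strand, 9 exons), the founding auxin influx carrier, was at 70.7, 52.2 and 43.0 CPM in X13, X16 and X74, against 108, 91.0 and 149 CPM in X14, X71 and X26. Each AG library was above each AP3 library, and X26 was the highest. The log2 fold change was -1.07 (SE 0.25, edgeR adjusted p = 0.0309). Of the 5 calls, it held in the fewest of the 13 alternatives, 8. It was lost without X14 (edgeR adjusted p = 0.0528), X16 (0.114), X26 (0.0799) or X74 (0.0770) and in the 4 libraries (0.0687), with a fold change between -0.85 and -1.14.

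LAX3 (AT1G77690, chromosome 1, 29200417 to 29203418 on the reverse strand, 7 exons), known in Arabidopsis for lateral root emergence, was at 1.95, 2.63 and 2.59 CPM in X13, X16 and X74, against 6.53, 3.496 and 13.5 CPM in X14, X71 and X26. The domains did not overlap, but the AG libraries were spread almost 4-fold, with X26 highest. The log2 fold change was -1.71 (SE 0.49, edgeR adjusted p = 0.0687), with a 95% interval of -2.81 to -0.61 before adjustment. DESeq2 called it (adjusted p = 0.00495) and with it 6 of the 10 genes, where it called 12.2% of all genes. It was also called by edgeR with no filter on low counts (0.0243), in the 4 libraries (0.0466) and without X71 (0.0301). Without X26 the fold change was -1.07 (edgeR adjusted p = 0.210).

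LAX1 (AT5G01240, chromosome 5, 97536 to 101835 on the forward strand, 9 exons) and LAX2 (AT2G21050, chromosome 2, 9034056 to 9036636 on the forward strand, 6 exons), a carrier known for vein patterning, did not pass the test. LAX1 was at 30.2, 35.7 and 28.6 CPM in X13, X16 and X74, against 45.4, 38.9 and 24.5 CPM in X14, X71 and X26. LAX2 was at 84.4, 85.7 and 45.8 CPM in X13, X16 and X74, against 102, 74.7 and 89.3 CPM in X14, X71 and X26. Both overlapped, through a low X26 for LAX1 and through X71 for LAX2. The log2 fold changes were -0.20 with a 95% interval of -0.74 to 0.33 for LAX1 (edgeR adjusted p = 0.732) and -0.30 with one of -0.87 to 0.27 for LAX2 (edgeR adjusted p = 0.603).

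AUX1 made up 28.9%, 22.3% and 28.3% of the summed RPKM of the 4 carriers in X13, X16 and X74, against 32.4%, 35.1% and 43.6% in X14, X71 and X26. The mean difference was -10.5 percentage points (p = 0.1 in the 2-sided exact permutation test, the smallest possible, adjusted over the 3 shares 0.15). LAX2 was the largest component in 5 of the 6 libraries. In X26 it had 43.5%, level with AUX1. The summed level of the carriers was 56.8, 54.5 and 35.2 RPKM in X13, X16 and X74, against 77.4, 60.3 and 79.4 RPKM in X14, X71 and X26.

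**Figure D3:**
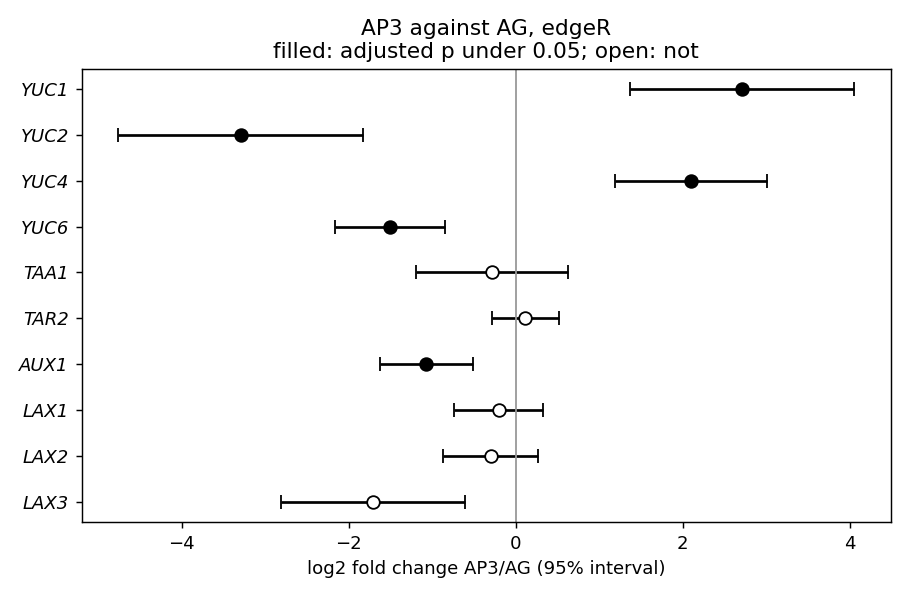
Log2 fold change AP3/AG (horizontal axis) of each gene with its 95% interval from edgeR's test, where positive values are higher in AP3. Filled points have an adjusted p under 0.05. YUC1 and YUC4 lie to the right of 0, YUC2, YUC6 and AUX1 to the left, and LAX3 is open although its interval, which is not adjusted for the number of genes, excludes 0.

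The order of the genes depends on length scaling, in which gene lengths included introns. Without it, AUX1 had a higher mean than LAX2 in the AG libraries, 116 against 88.7 CPM. Set in order of level per length, LAX2 led in both domains, with 27.9 ± 8.78 RPKM in the AP3 libraries and 34.3 ± 5.30 RPKM in the AG libraries (SD, n = 3 each). In the AP3 libraries it was followed by TAR2 (15.5 ± 1.31 RPKM), AUX1 (12.8 ± 3.27), LAX1 (7.32 ± 0.861), YUC1 (5.32 ± 0.388), YUC4 (4.77 ± 0.514), TAA1 (4.49 ± 2.21), YUC6 (1.59 ± 0.540), LAX3 (0.797 ± 0.128) and YUC2 (0.129 ± 0.0908). TAR2 and AUX1 overlapped in their libraries there, as did YUC1, YUC4 and TAA1, and TAA1 and YUC6. In the AG libraries the order below LAX2 was AUX1 (27.0 ± 6.94 RPKM), TAR2 (14.4 ± 2.58), LAX1 (8.44 ± 2.49), TAA1 (5.45 ± 1.45), YUC6 (4.50 ± 0.196), LAX3 (2.61 ± 1.70), YUC2 (1.26 ± 0.496), YUC4 (1.12 ± 0.634) and YUC1 (0.820 ± 0.688). LAX2 and AUX1 overlapped there, as did LAX1 and TAA1, and TAA1, YUC6 and LAX3 with one another. LAX3, YUC2, YUC4 and YUC1 also overlapped with one another. By the mean, YUC1 had rank 5 of the 10 in the AP3 libraries and rank 10 in the AG libraries, but its order among its overlapping neighbours differed between libraries.

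Markers of vascular and epidermal cells differed between the same libraries, where 1.36% of all genes tested were called higher and 6.40% lower in AP3. Of 13 xylem markers, 10 were called lower in AP3 and none higher. Among those called, VND4, VND6, VND7, XCP1 and MYB46 passed the filter on low counts only through the AG libraries. For them the filter itself favoured a call as lower. The summed level of the 13 xylem markers was 40.9 to 48.0 CPM in the AP3 libraries against 172 to 255 CPM in the AG libraries. CESA4, CESA7 and MYB83 overlapped between the domains. CESA4 alone held 23.7 to 31.1 CPM of the sum in AP3 and 20.4 to 31.0 CPM in AG. ACL5 held 7.85 to 10.6 CPM in AP3 and 75.4 to 160 CPM in AG. Of 13 phloem markers tested, 9 were called lower (232 to 301 CPM summed in AP3, 421 to 546 CPM in AG), and of 9 procambium markers 5 (325 to 378 CPM in AP3, 587 to 732 CPM in AG). Each sum is of all markers tested. Most of the phloem sum came from SMXL5, BRX, OPS and CVP2, none of them called, and OPS overlapped between the domains. Of the procambium list, LHW, MOL1 and WOX14 overlapped. LHW alone held 179 to 199 CPM in AP3 and 166 to 245 CPM in AG. BRX, on the phloem list, lay the other way and was not called, with 47.7, 60.2 and 66.9 CPM in X13, X16 and X74, against 40.6, 36.9 and 20.9 CPM in X14, X71 and X26 (edgeR adjusted p = 0.0965). Of 8 epidermis markers, 2 were called higher in AP3, ATML1 and PDF1, and the sum of the list was 3883 to 4999 CPM in AP3 against 1191 to 2408 CPM in AG. CER5, LTP1 and HDG2 of this list overlapped between the domains. PDF1 was the most abundant of the 8, with 2897 to 3467 CPM in AP3 and 583 to 1491 CPM in AG, whereas CER6, a wax synthesis gene, lay lower in each AP3 library than in each AG library (edgeR adjusted p = 0.109). Of the vascular markers tested, only NEN4 (phloem) and MYB83 (xylem) had no read in a library, both in X16. On the phloem list, NEN4 and FTIP1, both called lower, also passed the filter only through the AG libraries. Of 9 floral genes tested, 4 were called, AP3, UFO, AP1 and SEP3, all higher in AP3. The carpel gene SHP1 was at 1.10 to 1.81 CPM in AP3 and 3.43 to 3.95 CPM in AG, with an edgeR adjusted p of 0.0932. The vascular sums lay on the same side as YUC2, YUC6, AUX1 and LAX3, and the epidermal sum on the same side as YUC1 and YUC4. Their part in these differences was not tested.

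**Figure D4:**
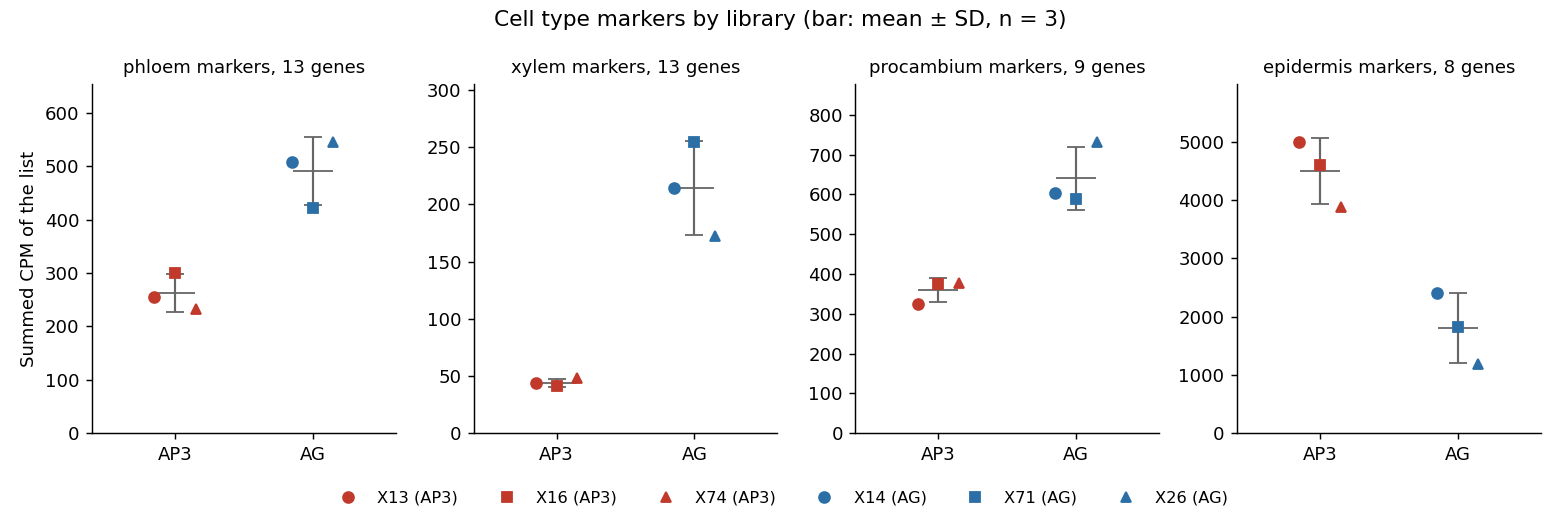
Summed level in CPM (vertical axis, from 0) of the tested markers of phloem, xylem, procambium and epidermis in the 3 AP3 libraries (red, left) and the 3 AG libraries (blue, right), with the mean ± SD. The domains do not overlap in any of the 4 lists. The vascular sums are lower and the epidermal sum is higher in the AP3 libraries. A few abundant genes make up most of each sum.

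The other genes of auxin metabolism were read from lists of 71 genes, of which 58 passed the filter. Of these, 3 were called higher and 6 lower in AP3 and 49 were not called, where 1.36% of all genes tested were called higher and 6.40% lower. Their median log2 fold change was 0.18 against 0.03 over all genes tested. Few reads came from the remaining YUC genes and TAR1. YUC5, YUC7, YUC8, YUC9, YUC10, YUC11 and TAR1 did not pass the filter, with at most 10 read pairs in any library. YUC3 passed it with 0 to 0.883 CPM and was not called. AT1G34060, listed with them by its identifier, was at 3.73, 18.3 and 11.2 CPM in X13, X16 and X74, against 6.90, 3.11 and 7.20 CPM in X14, X71 and X26, and overlapped between the domains (edgeR adjusted p = 0.402). AT1G34040, listed in the same way, was at 0.192, 0.164 and 0.267 CPM in X13, X16 and X74, against 0.922, 2.87 and 1.35 CPM in X14, X71 and X26 (log2 fold change -3.02, SE 0.64, edgeR adjusted p = 0.0214). With 7, 5 and 10 read pairs in X13, X16 and X74, AT1G34040 passed the filter only through the AG libraries.

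Upstream of the aminotransferases, none of the 12 genes of tryptophan synthesis was called, and their median log2 fold change was 0.23. The summed level was 578 to 682 CPM in the AP3 libraries and 511 to 685 CPM in the AG libraries. None of the 10 genes listed as indole side branches, among them genes of indole glucosinolate synthesis and nitrilase genes, was called either (median 0.47). NIT1, a nitrilase gene, did not overlap between the domains, with 151, 107 and 170 CPM in X13, X16 and X74, against 105, 104 and 74.8 CPM in X14, X71 and X26. The edgeR adjusted p of NIT1 was 0.177. NIT4, another nitrilase gene, lay lower in each AP3 library, with 0.851, 1.22 and 1.34 CPM in X13, X16 and X74, against 2.03, 2.13 and 2.20 CPM in X14, X71 and X26 (edgeR adjusted p = 0.293).

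The genes that remove auxin also included members higher and members lower in AP3. Of the 10 genes of auxin inactivation tested, of 14 listed, 3 were called higher and 3 lower in AP3 (median log2 fold change 0.46). Among all genes tested, 1.36% were called higher and 6.40% lower. GH3 enzymes of this group join auxin to amino acids. GH3.3 was at 36.4, 32.8 and 46.0 CPM in X13, X16 and X74, against 16.6, 10.6 and 12.2 CPM in X14, X71 and X26 (log2 fold change 1.55, SE 0.23, edgeR adjusted p = 0.00461). GH3.2 had a log2 fold change of 1.73 (SE 0.31, edgeR adjusted p = 0.0111) and GH3.5 one of 1.08 (SE 0.23, edgeR adjusted p = 0.0215), and neither overlapped between the domains. In the other direction, GH3.6 was at 10.8, 7.46 and 12.5 CPM in X13, X16 and X74, against 28.1, 47.3 and 74.3 CPM in X14, X71 and X26 (log2 fold change -2.28, SE 0.35, edgeR adjusted p = 0.00564). GH3.9, annotated in the same family, had a log2 fold change of -2.29 (SE 0.32, edgeR adjusted p = 0.00328).

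IAMT1, which methylates auxin, was at 5.13, 7.99 and 11.9 CPM in X13, X16 and X74, against 60.4, 45.2 and 52.1 CPM in X14, X71 and X26. Every AG library was far above every AP3 library, with a log2 fold change of -2.65 (SE 0.30, edgeR adjusted p = 0.00132). MES17, an esterase that hydrolyses methylated auxin, is in the list of 7 genes that release auxin from conjugates, of which none was called (median -0.33). It was at 36.6, 48.7 and 99.6 CPM in X13, X16 and X74, against 167, 206 and 119 CPM in X14, X71 and X26, and did not overlap between the domains. The edgeR adjusted p of MES17 was 0.0501.

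Of 18 genes listed as regulators tied to YUC or TAA1 expression, 16 were tested and 2 were called, both lower in AP3, where 6.40% of all genes tested were called lower (median log2 fold change -0.07). Whether each of them acts on these genes was not tested. STY2, a zinc finger factor of the SHI/STY family, was at 35.3, 29.0 and 31.5 CPM in X13, X16 and X74, against 68.0, 62.8 and 58.5 CPM in X14, X71 and X26 (log2 fold change -0.98, SE 0.16, edgeR adjusted p = 0.00669). AIL7, an AP2 domain factor of the PLETHORA group, had a log2 fold change of -1.29 (SE 0.30, edgeR adjusted p = 0.0301). NGA1, a B3 domain factor, was not called either way (log2 fold change 1.31, edgeR adjusted p = 0.108), nor was the bHLH factor SPT (0.58, edgeR adjusted p = 0.119), although both lay higher in each AP3 library than in each AG library. STY1, whose protein binds ACTCTAC, had 4.97, 7.73 and 7.76 CPM in X13, X16 and X74, against 5.20, 1.66 and 3.18 CPM in X14, X71 and X26, and overlapped between the domains (edgeR adjusted p = 0.233).

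**Figure D5:**
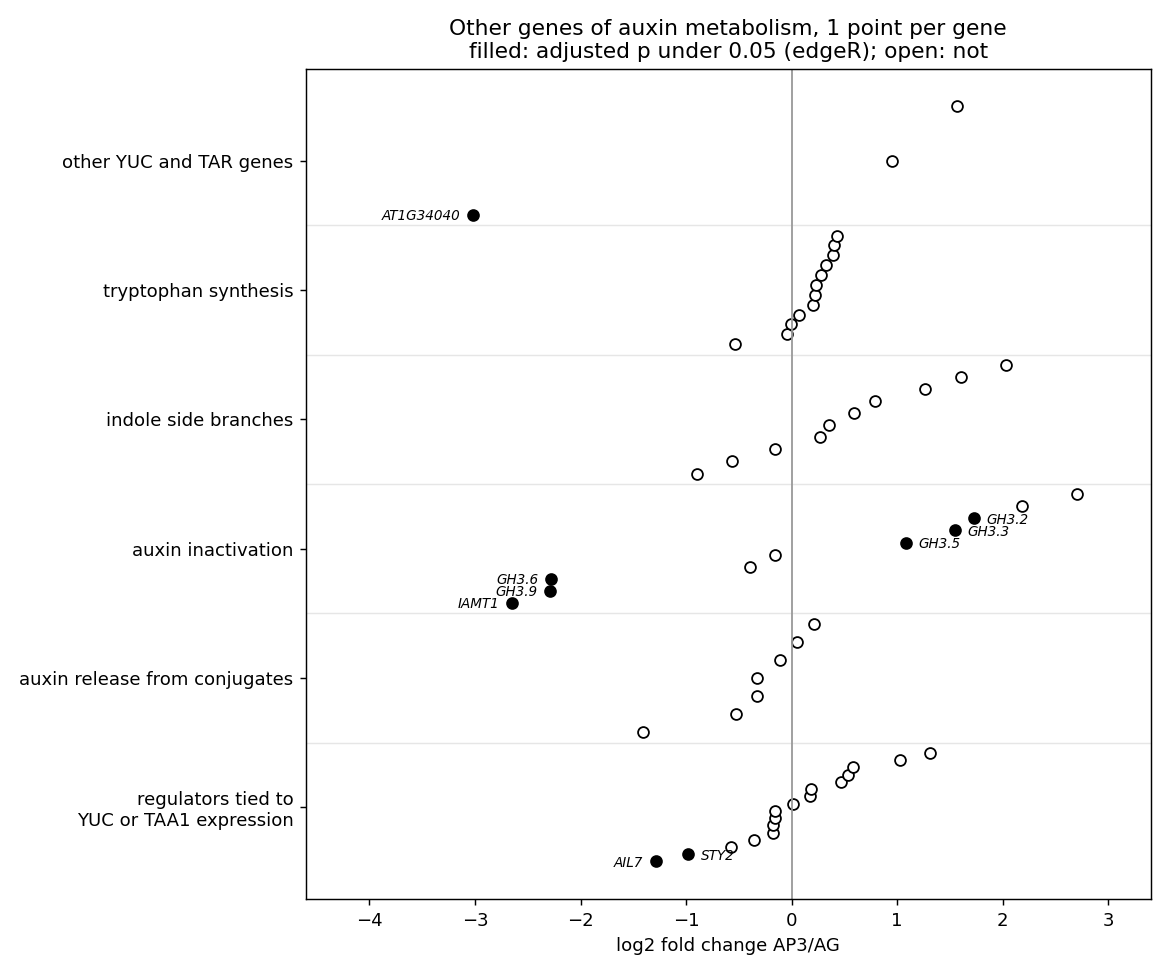
Log2 fold change AP3/AG (horizontal axis) of the 58 other genes of auxin metabolism that were tested, by list, where positive values are higher in AP3. Filled points, with names, have an adjusted p under 0.05. They are 3 genes of auxin inactivation to the right of 0, and to the left 3 of the same list, AT1G34040, STY2 and AIL7.

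For each of the 5 called genes, the 2 genes with the most similar course over the 6 libraries were found by the root mean square difference of log2 CPM after centring. The search covered genes whose log2 CPM averaged 3 or more. YUC1 was nearest to ARD3 (0.32) and FOP1 (0.33), a gene of petal cuticle formation, and YUC4 to the BELL homeobox gene BLH2 (0.21) and the purine permease gene PUP4 (0.23). YUC2 was nearest to AT3G22750 (0.42) and WAT1 (0.49), a vacuolar auxin transporter gene. YUC6 was nearest to the AP2-like gene TOE3 (0.13) and AT4G29100 (0.15). AUX1 was nearest to AZG1 (0.09), a purine transporter gene, and XTH28 (0.10). With 6 libraries in 2 domains, a close course describes these libraries only.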

How the data were processed

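FANS RNA-seq of 3 AP3 and 3 AG libraries was used. The authors used Trimmomatic for trimming and STAR 2.7.0b for mapping to TAIR10, kept reads with a unique position, and deposited raw read pair counts per gene, without normalization. The file headers name featureCounts 1.6.0 over whole Araport11 genes, introns included and without strand. Their table of DESeq2 variance stabilized values for 4 libraries was not used. Groups follow the genotype labels, and the labels give no replicate numbers.

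Here, organelle genes (2.39% to 4.56% of counts) were removed, and a gene was tested if 2 or more libraries had over 10 reads of it. edgeR 4.0.16 (R 4.3.3) tested AP3 against AG with its quasi-likelihood test, TMM factors and Benjamini-Hochberg adjustment, with calls at an adjusted p under 0.05. Standard errors were back-calculated from the F statistic, and 95% intervals use its degrees of freedom. CPM use TMM library sizes. log2 CPM used a prior count of 2. The script was tested on simulated data. Alternatives were DESeq2 1.42.0, other factors and filters, the 4 libraries of the authors' table, a term for X74 and X71 against the rest, and each library left out. The genes and lists were chosen with earlier results of these data known. The text names the 10 genes, the genes called in the lists of auxin metabolism, those nearest to a called gene, and AP3 and AG. Other genes were named after their values were seen. Of 136 list identifiers, 6 had no matching name in the reference and are given by identifier. The reference is TAIR10.1, whose start and end were identical for 33055 of 33056 matched genes.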

Additional observations from a re-analysis of the deposited data

How the results depend on the processing

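The 5 calls among the auxin synthesis and influx genes kept their direction in each of the 13 alternatives, but not their side of the threshold. The number called was 6 with DESeq2 and with no filter beyond 1 read, 2 in the 4 libraries X13, X16, X14 and X26 (none of them higher in AP3), and 2 to 4 when 1 library was left out, with 2 without X16 and 3 without X13. Over all genes, 1554 were called in the main analysis, 2435 with DESeq2, 1022 in the 4 libraries, and 737 to 1480 with 1 library left out, where X16 (737), X13 (953) and X71 (981) moved the count most. YUC1 was called in 9 of the 13 alternatives (adjusted p 1.08e-05 to 0.124), YUC2 in 12 (6.92e-06 to 0.0595), YUC4 in 11 (2.75e-06 to 0.0582), YUC6 in 11 (2.91e-05 to 0.0762), AUX1 in 8 (0.000968 to 0.114) and LAX3 in 4 (0.00495 to 0.210), by edgeR or DESeq2. TAA1, TAR2, LAX1 and LAX2 were called in none. TAA1 turned to 0.20 in the 4 libraries and 0.077 without X74 (-0.55 to 0.077 with 1 library left out), and TAR2 to -0.00059 without X14 (up to 0.27). The difference in the share of TAA1 turned to 1.91 percentage points in the 4 libraries and ran from -10.8 to -0.156 with 1 library left out. That of YUC4 ran from 24.0 to 29.5 and that of AUX1 from -12.8 to -7.25. The cause of these changes was not tested. No paired analysis was possible because the labels give no replicate numbers. YUC2 had the fewest reads of the 10 genes, 5 to 18 read pairs in each AP3 library, which limits the precision of its fold change.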

Other observations

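The genes that open the branch to indole glucosinolates set the libraries X74 and X71 apart from the other 4, whatever their domain. CYP79B2, which converts tryptophan to indole-3-acetaldoxime, was at 22.1 CPM in X74 and 6.64 CPM in X71, against 0.627 to 1.51 CPM in the other 4 libraries. Its paralog CYP79B3 was at 33.4 CPM in X74 and 7.67 CPM in X71, against 0.553 to 2.66 CPM. SUR2, the next enzyme, was at 77.1 CPM in X74 and 24.5 CPM in X71, against 5.38 to 9.69 CPM. These 3 genes were picked after their values were seen, and the difference was not tested.

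UGT74E2, a glucosyltransferase gene listed under auxin inactivation, was at 84.4 CPM in X13, against 2.50 to 11.2 CPM in the other 5 libraries, so that its level rests on that library (adjusted p = 0.271 from edgeR between the domains).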
